A study of Mus musculus with 6 samples.

Results

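Chemokines, interleukins and their receptors were read from bulk RNA-seq of mouse aortas in which Prdm16 had been deleted in smooth muscle cells. The rule for the group used names and no measured value, though earlier results of these data were known when it was chosen. It took protein-coding genes whose symbol begins with Ccl, Ccr, Cxcl, Cxcr, Ackr or Il followed by a number, together with Cx3cl1 and Cx3cr1. This gave 150 of the 55487 genes in the count table, which carry 142 distinct symbols because several genes have near-identical copies listed separately. Of these, 48 had a count over 10 in all libraries of at least 1 group and entered the test, among 16565 genes tested in all. The other 102 did not, and 28 of them had no count in any library. Il4i1, an amino acid oxidase whose symbol also begins with Il and a number, was kept in every count but is no cytokine.

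The study compared aortas, with the adventitial layer removed, from 3 Prdm16 iSM KO mice (Myh11-CreERT2; Prdm16 F/F) and 3 control mice (Myh11-CreERT2; Prdm16 W/W). Every mouse was a C57BL/6 male, since this Cre transgene is Y-linked, and every mouse, controls included, carried the Cre and received tamoxifen. Tamoxifen began at 8 weeks of age at 1 mg per mouse per day for 10 days and was followed by 2 weeks of washout and a further 60 days. The Cre acts in smooth muscle cells and removes the floxed exon 9, so other cells of the wall keep an intact gene. P-values set the difference between the groups against the spread among the 3 libraries within each group.

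Chemokines are small secreted proteins that attract leukocytes through G protein-coupled receptors, while atypical chemokine receptors bind and remove chemokines without driving migration. Interleukins act through paired receptor chains, many of which signal through Jak kinases and Stat factors, whereas the IL-1 and IL-17 receptor families use adaptor proteins that lead to NF-kB. Smooth muscle, endothelial cells, fibroblasts and resident macrophages of the arterial wall can each make or sense some of these proteins.

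Prdm16 itself (chr4:154316125-154636873, minus strand, GRCm38) was measured at 183, 223 and 179 CPM (counts scaled to the library size after edgeR's TMM correction) in the control libraries and at 93.8, 113 and 79.8 CPM in the iSM KO libraries. Every KO library was lower than every control library, with a log2 fold change of -1.03 (SE 0.14, edgeR FDR = 0.00265). FDR here is the Benjamini-Hochberg adjusted p of edgeR's quasi-likelihood test over all genes tested, and fold changes are KO relative to control. Counts of the whole gene include exons outside the deleted one.

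Libraries held 24911609 to 40460467 counts, of which 59.0% to 67.6% fell on protein-coding genes. The 150 members summed to 682 to 751 CPM in control libraries and 653 to 743 CPM in KO libraries, so the summed level overlapped between the groups. Smooth muscle markers summed to 21625 to 26716 CPM, while summed T cell, B cell, neutrophil and natural killer cell markers stayed at or under 1.26 CPM in every library. Markers of endothelium, fibroblasts, adipocytes and macrophages were also present and varied between libraries, and their values are given beside some of the results. In bulk tissue, fewer cells of a type and less RNA per cell cannot be told apart.

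Most of the family was barely counted in these aortas, and most members with enough counts did not pass the test. In the iSM KO aortas 2 of the 48 tested members were higher, the receptor chain Il1r1 and the cytokine Il17b, and 3 were lower, the receptor chains Il13ra1 and Il11ra1 and the eosinophil chemokine Ccl11. The higher members were 4.17% of those tested, against 4.26% over all genes tested, a share near the background. The lower members were 6.25%, against 3.3% over all genes tested. Ccl11 entered the test through the control libraries alone, a filter that favours lower KO values, so nothing is read from this share. With a fold change over 2 as well, 1 member was higher, Il17b (2.08%, against 1.4% over all genes), and 1 was lower, Ccl11 (2.08%, against 1.38%). Nothing is read from this lower share either, since Ccl11 is its only member. The median log2 fold change was -0.22 over the 48 members and -0.01 over all genes tested, and 33 of the 48 members (68.8%) had a negative value, against 52.4% of all genes tested. The median log2 fold change of the tested markers was also negative for endothelium (-0.72), fibroblasts (-0.70), macrophages (-0.60) and adipocytes (-3.35), and their part in the members' values was not tested.

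**Figure D1:**
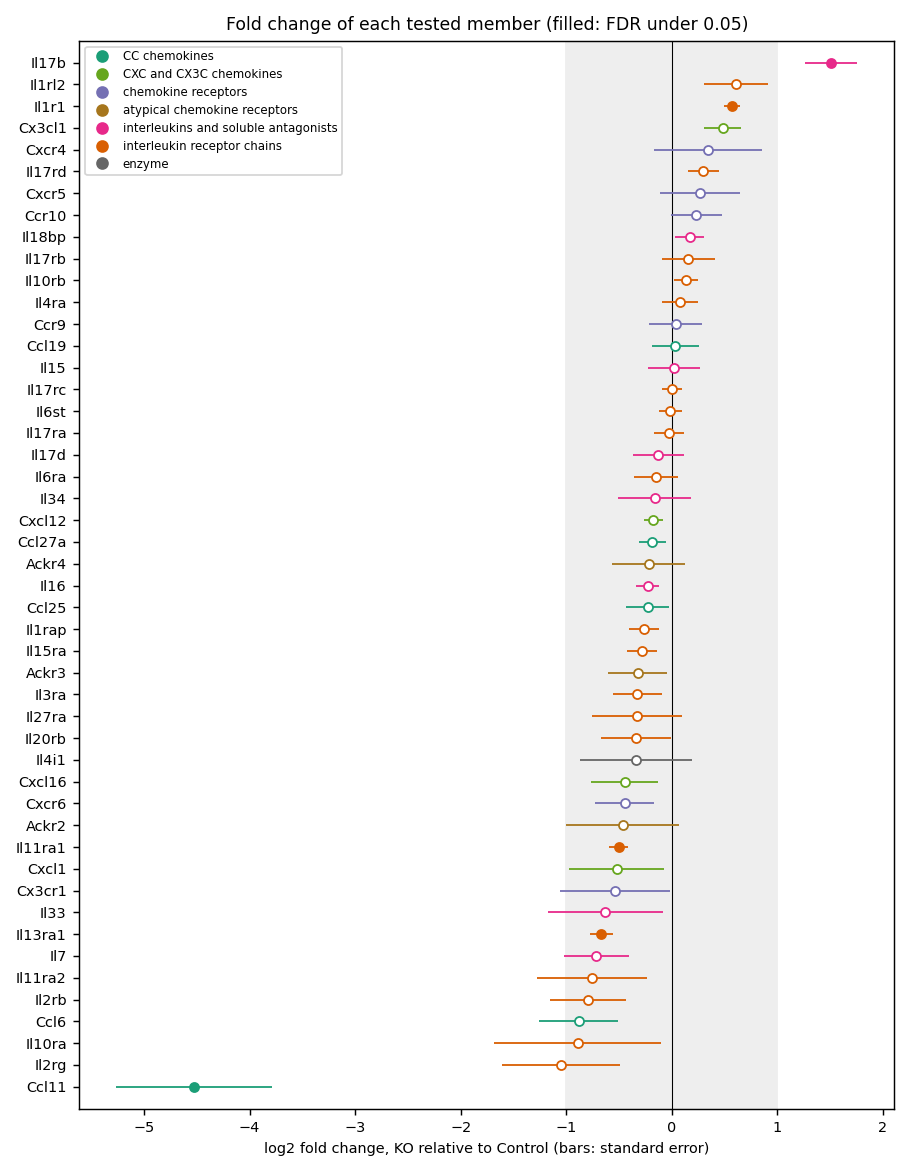
Log2 fold change (x axis) of each of the 48 tested members, iSM KO relative to control, with bars for the standard error, colours for the member's role and filled points for an FDR under 0.05; the grey band spans a fold change of 2 in either direction. The filled points are Il17b and Il1r1 on the right and Il11ra1, Il13ra1 and Ccl11 on the left, and Ccl11 lies far from the rest at -4.52.

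Il1r1 (chr1:40225080-40317257, plus strand), the signalling receptor chain for IL-1α and IL-1β, gave 44.6, 50.0 and 47.9 CPM in control aortas and 71.4, 72.2 and 67.8 CPM in iSM KO aortas. All KO libraries lay above all control libraries and the groups were well apart. The log2 fold change was 0.57 (SE 0.07, edgeR FDR = 0.00247), from a mean of 47.5 ± 2.74 CPM to 70.4 ± 2.34 CPM (SD, n = 3 each). Its co-receptor chain Il1rap gave 7.04, 6.43 and 6.42 CPM in controls and 5.08, 5.22 and 6.30 CPM in KO. Those values did not overlap but the difference did not pass the test (log2 fold change -0.26, SE 0.14, edgeR FDR = 0.310). The ligands and the antagonist were barely counted. Il1b had 0, 22 and 2 reads in controls and 0, 0 and 6 in KO, Il1rn, the receptor antagonist, had 0, 4 and 0 against 1, 5 and 8, and Il1a had at most 2 in any library.

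Sequence before the start sites of Il1r1 and Il13ra1, receptor chains past the FDR in opposite directions, is shown so that the letters can be read beside their values. The windows are 250 bases on GRCm38.p6 from RefSeq, plus strand, 5′ to 3′, and Il1r1 has 2 annotated starts. Capitals mark matches to the motifs named after the lines.
Il1r1, first start, chr1:40224830-40225079: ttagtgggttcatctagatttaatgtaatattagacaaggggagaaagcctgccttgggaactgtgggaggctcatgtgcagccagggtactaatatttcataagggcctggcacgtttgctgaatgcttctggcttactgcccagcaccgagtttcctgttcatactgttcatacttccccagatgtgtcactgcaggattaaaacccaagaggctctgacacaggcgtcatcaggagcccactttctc
Il1r1, second start, chr1:40266336-40266585: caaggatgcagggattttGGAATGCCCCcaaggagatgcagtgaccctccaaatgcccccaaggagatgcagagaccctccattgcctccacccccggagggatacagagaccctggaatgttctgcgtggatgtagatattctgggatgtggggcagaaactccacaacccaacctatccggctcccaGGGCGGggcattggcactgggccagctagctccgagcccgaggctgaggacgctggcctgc
Il13ra1, chrX:36111858-36112107: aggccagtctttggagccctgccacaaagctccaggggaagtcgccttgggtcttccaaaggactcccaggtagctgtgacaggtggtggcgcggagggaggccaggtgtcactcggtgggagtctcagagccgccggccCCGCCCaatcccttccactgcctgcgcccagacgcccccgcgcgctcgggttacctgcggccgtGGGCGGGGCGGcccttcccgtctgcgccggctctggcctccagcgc

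Both strands were searched for GGGCGG (GC box), GGG and TTCC separated by any 3 bases (an NF-kB type site), TTC and GAA separated by any 3 or any 4 bases (STAT type sites) and TGANTCA (AP-1). The first Il1r1 window held none of them. The second held a GC box that begins 61 bases before the start and, on the minus strand, an NF-kB type match that begins 232 bases before it. The Il13ra1 window held GC boxes that begin 110, 46 and 41 bases before the start, the last pair overlapping, and no STAT type match. The windows of Il11ra1, the other receptor chain past the FDR, overlap an annotated UTR and are not printed; one held no match and the other a GC box that begins 15 bases before the start. Over 32851 RefSeq windows of the same length, the GC box was found in 32.7%, the NF-kB type in 4.65%, the STAT types in 7.02% (3 bases between) and 5.85% (4 bases between) and AP-1 in 6.75%. Such matches describe letters in these windows. Of the 48 tested members, 35 had a window in this table.

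Il17b (chr18:61684887-61692538, plus strand), a cytokine of the IL-17 family, gave 2.33, 3.72 and 3.98 CPM in control aortas and 10.9, 10.7 and 6.76 CPM in iSM KO aortas. Every KO library was above every control library, and KO 3 was the lowest of the KO libraries. The log2 fold change was 1.51 (SE 0.25, edgeR FDR = 0.00734), the largest increase of any tested member. Per kilobase of exon the level rose from 3.44 to 9.74 CPM, higher than any other tested interleukin in KO aortas. An antisense gene, Gm38165, overlaps its exons and had at most 5.16 counts in a library, and whether counting used strand is not given in the sources used here.

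The receptor chains for IL-17 family ligands were measured and did not pass the test. Il17rb, which binds IL-17B, gave 0.985, 1.20 and 0.964 CPM in controls and 1.20, 1.09 and 1.23 CPM in KO (log2 fold change 0.16, SE 0.25, 95% interval -0.41 to 0.72, edgeR FDR = 0.752). Il17rc, the second chain for IL-17A and IL-17F, gave 22.7, 24.3 and 26.3 CPM against 22.7, 24.8 and 25.6 CPM, and the shared chain Il17ra gave 6.36, 5.33 and 5.37 CPM against 5.37, 6.13 and 5.28 CPM. Il17rc differed by 0.00 on the log2 scale with a 95% interval of -0.21 to 0.21, and Il17ra by -0.02 with an interval of -0.35 to 0.30. Il17a and Il17f themselves had no count in any library.

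Il13ra1 (chrX:36112110-36171259, plus strand), a receptor chain for IL-13 that pairs with Il4ra, gave 16.5, 14.5 and 16.6 CPM in control aortas and 9.37, 9.86 and 10.8 CPM in KO aortas. All KO libraries were below all control libraries. The log2 fold change was -0.67 (SE 0.11, edgeR FDR = 0.00613). Its partner chain Il4ra gave 9.07, 12.8 and 7.84 CPM in controls and 10.6, 10.1 and 10.8 CPM in KO, with overlapping groups (log2 fold change 0.08, SE 0.17, edgeR FDR = 0.825). The ligands were near the limit of detection: Il13 had 10, 2 and 0 reads in controls and 0, 1 and 0 in KO, and Il4 at most 2 in any library.

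Il11ra1 (chr4:41699989-41769474, plus strand), the ligand-binding chain for IL-11, gave 144, 131 and 159 CPM in control aortas and 96.4, 102 and 108 CPM in KO aortas. The groups did not overlap, and the log2 fold change was -0.50 (SE 0.09, edgeR FDR = 0.0118). Without KO 1 the log2 fold change was -0.46 (edgeR FDR = 0.0640) and without KO 2 it was -0.50 (edgeR FDR = 0.0651), so the call was lost while the size of the difference changed little. Per kilobase it was the highest tested member in controls, at 32.4 CPM, and it stood at 22.8 CPM in KO. Il6st, the gp130 chain shared by IL-6, IL-11 and related cytokines, stood at 23.4 CPM per kilobase in controls and 23.2 CPM in KO, from 282, 272 and 225 CPM in controls and 241, 253 and 278 CPM in KO. Il6st differed by -0.01 (95% interval -0.25 to 0.23, edgeR FDR = 0.958). Il11, the ligand, had 5, 5 and 2 reads in controls and 6, 4 and 5 in KO.

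Il11ra1 has near-identical copies, so part of its reads could have been assigned to another entry. The 3 Il11ra2 entries summed to 65.4, 54.2 and 55.0 counts in controls and 46.0, 33.4 and 54.9 counts in KO, beside 4835, 5025 and 3800 counts of Il11ra1 in controls and 3928, 3570 and 3934 in KO. With these entries added to Il11ra1, a fit chosen after seeing the data, the same 5 members passed. Exons of Il11ra1 and Ccl27a overlap on opposite strands at chr4:41769467-41769474.

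**Figure D2:**
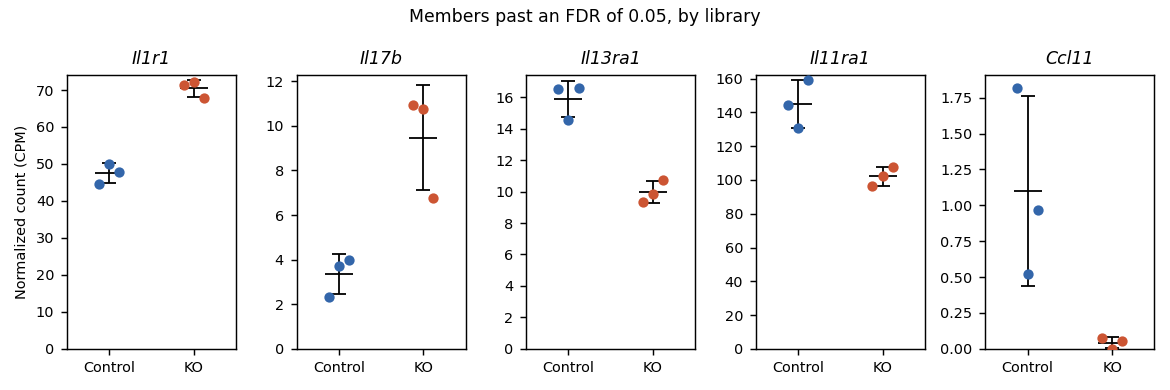
Normalised counts (CPM, y axis from 0) of the 5 members with an FDR under 0.05 in each library, with the mean and SD of 3 libraries a group as bars. KO libraries sit above the controls for Il1r1 and Il17b and under them for Il13ra1, Il11ra1 and Ccl11, with no overlap in any of the 5 genes.

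Ccl11 (chr11:82057823-82062955, plus strand), the eotaxin that attracts eosinophils, gave 1.82, 0.520 and 0.964 CPM in control aortas and 0.0736, 0 and 0.0548 CPM in KO aortas. It was nearly absent from KO libraries, one of which had no count. Ccl6 and Il10ra likewise entered the test through the control libraries only, and 6 members entered through the KO libraries only. The log2 fold change was -4.52 (SE 0.74, edgeR FDR = 0.00699). Counts summed to 104 in controls and 5 in KO, a depth-scaled ratio of 24.4 with a 95% counting interval of 10.1 to 76.6. The interval covers counting error only and not the spread between mice. Because Ccl11 entered the test through the control libraries alone, its fold change, FDR and ratio are given as description only. The Ccl11 receptor Ccr3 had 1 read in 1 control library and none elsewhere.

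Adipocyte marker sums were lower in every KO library than in every control library, while fibroblast and mast cell marker sums overlapped between the groups. Fibroblast markers summed to 241, 115 and 168 CPM in controls and 85.6, 96.8 and 131 CPM in KO, and 1 of the 7 passed the test, Clec3b (log2 fold change -1.56, SE 0.36, edgeR FDR = 0.0348). Adipocyte markers summed to 24.8, 108 and 71.8 CPM in controls and 7.85, 7.08 and 11.6 CPM in KO. Of the 5 tested, 4 passed the test and were lower: Adipoq, Plin1, Cidec and Fabp4. Retn was also lower but did not pass (log2 fold change -3.26, SE 0.93, edgeR FDR = 0.0719). Mast cell markers summed to 2.18, 0.312 and 2.18 CPM in controls and 0.270, 0.487 and 0.438 CPM in KO, none with enough counts for the test. Their part in the Ccl11 result was not tested.

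The other tested CC chemokines did not pass the test. Ccl27a, a chemokine of epithelia that acts through Ccr10, gave 6.21, 6.77 and 7.51 CPM in controls and 5.987, 5.989 and 5.996 CPM in KO, and was the highest CC chemokine per kilobase (2.87 and 2.52 CPM). All KO libraries lay just under the controls, at a log2 fold change of -0.19 (95% interval -0.48 to 0.10, edgeR FDR = 0.436). Ccl19, a ligand of Ccr7 on T cells and dendritic cells, gave 2.03, 1.64 and 1.64 CPM against 1.91, 1.60 and 1.92 CPM (log2 fold change 0.03, edgeR FDR = 0.948). Ccl25, the ligand of Ccr9, gave 4.90, 5.31 and 3.77 CPM against 4.98, 3.35 and 3.61 CPM. The Ccl25 groups overlapped and the FDR was 0.555 by edgeR. Ccl6 gave 0.657, 0.651 and 0.587 CPM against 0.196, 0.458 and 0.383 CPM, a gap between the groups that did not pass (log2 fold change -0.88, SE 0.37, edgeR FDR = 0.209). Ccl27a and Ccl21 are each listed as several near-identical copies, and the 7 Ccl21 entries together had 10.7, 11.1 and 69.8 counts in controls and 21.01, 4.70 and 40.5 in KO, too few for the test.

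Among CXC and CX3C chemokines none passed. Cx3cl1, the membrane-tethered fractalkine, gave 27.2, 35.9 and 21.1 CPM in controls and 36.0, 36.4 and 45.4 CPM in KO and was the highest chemokine per kilobase, at 7.14 and 9.99 CPM. The groups just missed overlapping, and the log2 fold change was 0.48 (SE 0.18, edgeR FDR = 0.154). Without the filter on low counts its FDR was 0.0295, and without control 2 it was 0.0283. Cxcl12, which acts on Cxcr4 and is taken up by Ackr3, gave 42.8, 44.8 and 43.3 CPM in controls and 35.7, 37.0 and 43.4 CPM in KO. Its KO 3 value lay among the controls while KO 1 and KO 2 were lower, and the difference did not pass (log2 fold change -0.17, SE 0.09, edgeR FDR = 0.294). Cxcl16, the ligand of Cxcr6, gave 4.96, 5.23 and 2.60 CPM against 2.18, 2.92 and 4.38 CPM, with wide overlap. Cxcl1 also overlapped, at 0.419 to 1.64 CPM in controls and 0.687 to 1.07 CPM in KO.

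Receptors for chemokines were low. The highest per kilobase was Ccr10, at 1.76, 2.03 and 1.64 CPM in controls and 2.21, 2.58 and 1.62 CPM in KO (log2 fold change 0.23, edgeR FDR = 0.617). Cxcr6 gave 1.34, 1.25 and 1.47 CPM against 1.25, 0.745 and 0.958 CPM (log2 fold change -0.45, edgeR FDR = 0.384). Cx3cr1, a receptor of monocytes and macrophages, gave 1.49, 1.54 and 0.377 CPM against 0.491, 0.630 and 1.29 CPM, so the lowest control and the highest KO library crossed. None of the 6 tested receptors passed. The remaining 12 of 18 were not tested, and Ccr2, a receptor of monocytes, had at most 18 reads in a library.

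Atypical receptors spread within both groups. Ackr3, the scavenger of Cxcl12, gave 16.6, 18.4 and 8.64 CPM in controls and 9.96, 9.49 and 15.7 CPM in KO, Ackr4 1.94, 2.11 and 1.17 CPM against 0.883, 1.69 and 1.97 CPM, and Ackr2 0.806, 0.156 and 0.671 CPM against 0.368, 0.344 and 0.438 CPM. Their groups overlapped, and the FDR by edgeR was 0.541, 0.750 and 0.655. Endothelial markers, which summed to 814, 925 and 444 CPM in controls and 233, 428 and 707 CPM in KO with 0 of 7 past the FDR, were likewise lowest in control 3 and highest in KO 3 of their groups, as was Ackr3. Their part in this spread was not tested.

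Of 40 interleukins and soluble antagonists, 8 were tested. Besides Il17b, the highest per kilobase were Il16, a chemoattractant for CD4 cells, and Il18bp, a secreted antagonist of IL-18. Il16 gave 19.9, 23.3 and 21.5 CPM in controls and 17.1, 20.8 and 17.4 CPM in KO (log2 fold change -0.23, edgeR FDR = 0.262). Il18bp gave 4.12, 4.48 and 4.11 CPM against 4.91, 4.70 and 4.68 CPM. These did not overlap, with a log2 fold change of 0.17 that did not pass (edgeR FDR = 0.524). Il33, an alarmin, spread from 1.72 to 6.06 CPM among controls and from 0.932 to 3.15 CPM in KO. Il7, a growth factor for lymphocytes, gave 0.567, 0.677 and 0.755 CPM against 0.368, 0.401 and 0.438 CPM, and did not pass (log2 fold change -0.72, SE 0.31, edgeR FDR = 0.211). The untested 32 included 15 with no count in any library.

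Of 43 interleukin receptor chains, 21 were tested. Beyond the chains already described, Il10rb, Il15ra and Il17rd lay between 7.16 and 16.4 CPM in every library and did not pass. Il4i1, the enzyme, gave 0.781 to 1.38 CPM in controls and 0.466 to 1.81 CPM in KO, with overlap. Il2rg, the common gamma chain of lymphoid cytokine receptors, had the lowest fold change of the chains, at 1.61, 3.46 and 1.17 CPM in controls and 0.466, 0.659 and 1.94 CPM in KO. KO 3 lay above 2 of the 3 controls, and the log2 fold change of -1.05 (SE 0.56, edgeR FDR = 0.312) did not pass.

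**Figure D3:**
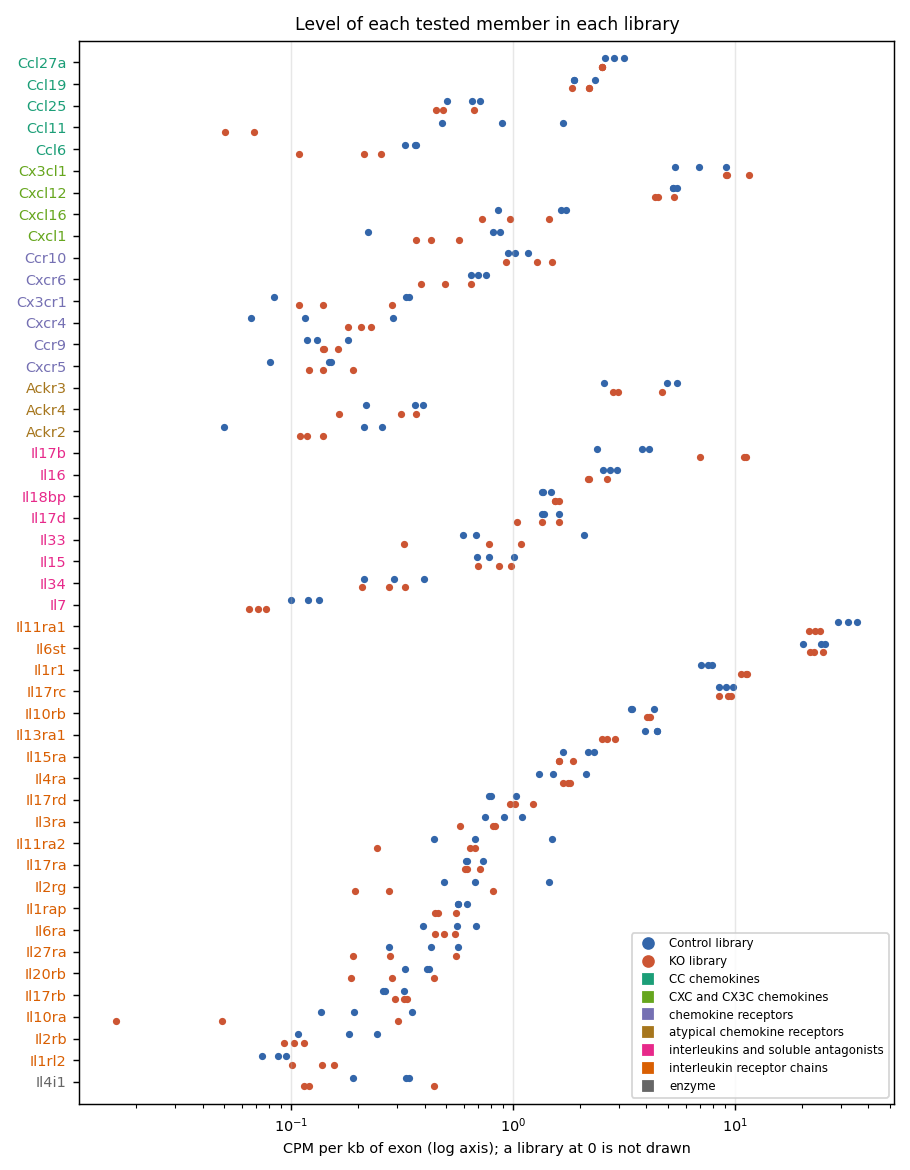
CPM per kilobase of exon (log x axis) of each of the 48 tested members in each of the 6 libraries, in rows grouped by role; blue points are control libraries and red points iSM KO libraries, and a library at 0 is not drawn. Receptor chains Il11ra1 and Il6st sit highest, most chemokine receptors sit near or under 1, and the groups lie apart in few rows.

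KO 3 stood apart for many members. It was the highest KO library for 33 of the 48 tested members (68.8%), against 35.1% of all genes tested, a pattern chosen after its values were seen. Il10ra, the ligand-binding chain for IL-10, gave 0.172, 0.0573 and 1.07 CPM in KO 1, 2 and 3 and 0.478, 1.22 and 0.671 CPM in controls. Without KO 3 it passed the FDR with a fold change over 2, which made 2 lower members at that threshold with Ccl11. Both entered the test through the control libraries alone, a filter that favours lower KO values. KO 3 also held the highest KO value of Il10ra, so nothing is read from that call. Macrophage markers summed to 43.5, 39.8 and 39.6 CPM in controls and 15.3, 15.7 and 46.5 CPM in KO, low in KO 1 and KO 2 and at the control level in KO 3, with 0 of 9 past the FDR. Their part in the levels of Il10ra, Il2rg and Cx3cr1 was not tested.

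**Figure D4:**
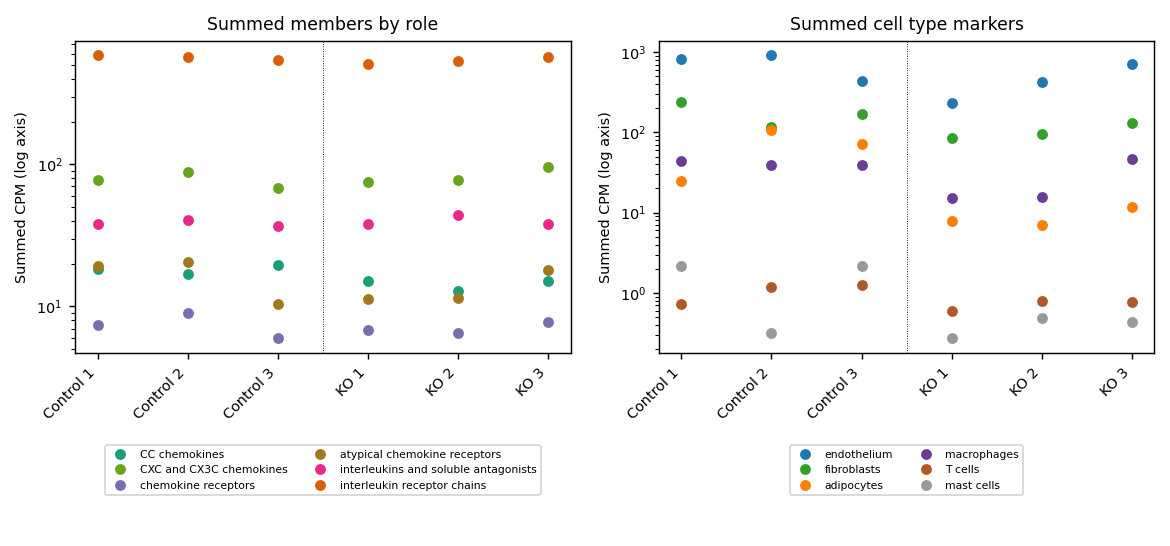
Summed CPM (log y axis) in each of the 6 libraries, for members by role on the left and for cell type markers on the right, with colours for the role or cell type and a dotted line between control and KO libraries. Macrophage markers drop to 15.3 and 15.7 CPM in KO 1 and KO 2 but reach 46.5 CPM in KO 3, and adipocyte markers are lower in every KO library than in every control.

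Members were also counted by separation alone. Every KO library was above every control library for 5 of 48 members (10.4%, against 15.0% of all genes tested), Il17b, Il1r1, Cx3cl1, Il18bp and Il1rl2, and below for 7 (14.6%, against 13.0%), Il13ra1, Ccl6, Ccl11, Il1rap, Il7, Ccl27a and Il11ra1. Among the members below, Ccl6 and Ccl11 entered the test through the control libraries alone, so nothing is read from that share. For any 1 gene, the smallest p that permuting 3 against 3 libraries allows is 0.1 by a two-sided exact test. Of the 43 members that did not pass, 24 had a 95% interval within a fold change of 2 and 19 had one that reached past it.

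Genes that act with the members moved little. Of 22 tested Jak, Stat and Socs genes, 1 passed, Stat5a, which was lower (log2 fold change -0.45, edgeR FDR = 0.0390). Of 26 genes of IL-1 receptor and NF-kB signalling, 1 passed, Traf3ip2, the adaptor of IL-17 receptors, at 12.2, 12.5 and 12.2 CPM in controls and 18.7, 18.7 and 17.2 CPM in KO (log2 fold change 0.56, SE 0.09, edgeR FDR = 0.00631). Of 14 other chemokine genes, 1 passed, Rarres2, which encodes the chemoattractant chemerin, at 80.2, 78.1 and 80.0 CPM against 52.9, 51.1 and 49.9 CPM (log2 fold change -0.63, edgeR FDR = 0.000927). These 3 genes are named because they passed, after their values were seen, and none had a fold change over 2.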

How the data were processed

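Bulk RNA-seq was measured in 6 aortas, 3 control and 3 iSM KO. The authors depleted ribosomal RNA, sequenced paired-end reads and quantified them with DRAGEN against Ensembl release 101 (mm10). They deposited estimated counts for each gene and library, with 10.92% to 12.17% not whole, and were rounded here. How reads matching several genes were shared is not given in the sources used here. Genes with a count over 10 in all libraries of at least 1 group entered edgeR's quasi-likelihood test (edgeR 4.0.16, R 4.3.3) with TMM factors (6 libraries, no covariates, Benjamini-Hochberg over all genes tested). The fit was tested on simulated data. Positions are from GENCODE M21, copies from blastn 2.17.0 and promoters from RefSeq on GRCm38.p6. CPM used each library's total over the tested genes, multiplied by its TMM factor (0.958 to 1.04).

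The genes named are Prdm16, members past the FDR or with an absolute log2 fold change over 1, the 3 members of each role highest per kilobase, and partners of members past the FDR. Others were chosen after their values were seen. Members and lists were chosen with earlier results of these data known. Alternatives were DESeq2 1.42.0, limma-voom (limma 3.58.1), DESeq2 size factors, protein-coding library sizes, no filter, filterByExpr, a replicate block and each library left out. Some genes are not reported here.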

Additional observations from a re-analysis of the deposited data

How the results depend on the processing

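DESeq2, limma-voom, DESeq2 size factors, protein-coding library sizes and filterByExpr each called the same 5 members. Without a filter on low counts 122 members were tested and 6 were called, the 5 and Cx3cl1. Leaving out each library gave 1 to 2 lower members past a fold change of 2, the 2 without KO replicate 3. They were Ccl11 and, without KO replicate 3, Il10ra. Both entered the test through the control libraries alone, so nothing is read from this count. Il1r1, Il13ra1, Ccl11 and Il17b kept an FDR under 0.05 in all 13 alternatives, with a highest FDR of 0.0233, 0.0382, 0.0301 and 0.0383 by the tool of each alternative. Ccl11 entered the main test through the control libraries alone, so its values here are description only. Il11ra1 lost an FDR under 0.05 without KO replicate 1 (log2 fold change -0.46) and without KO replicate 2 (-0.50), against -0.50 with all libraries. Leave-one-out log2 fold changes were computed for the named members, and crossed 0 for 4 of them, none past the FDR in any fit: Ccl19 (-0.0223 to 0.149), Ackr4 (-0.46 to 0.058), Ackr2 (-0.95 to 0.015) and Il6st (-0.12 to 0.053). The cause was not tested. The labels do not say whether replicate numbers pair the libraries. Deviations of same-numbered libraries from their group means had correlations of -0.13, -0.05 and -0.11. Deviations within a group of 3 sum to 0, so these values cannot show whether a pairing existed. With the replicate block 2 members were higher and 3 lower, the same 5 genes. Low counts limit the rest: 102 members were under the filter, 28 of them with no count.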
